A study of Homo sapiens with 16 samples.

Results

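The 36 genes described here are the enzymes and transporters of glycolysis together with genes of the response to low oxygen, followed in 2 bladder cancer cell lines after knock-down of the transcription factor FOXA1. Members were the rows of the deposited count table whose gene name was on a list of 36 symbols, and all 36 were found among 58721 rows. By role, 3 carry glucose or lactate across the cell membrane, 11 belong to upper glycolysis (from glucose to the triose phosphates), 8 to lower glycolysis (from the triose phosphates to pyruvate and lactate), 5 to oxygen sensing and other oxygen-dependent hydroxylases, and 9 are other genes of the hypoxia response. RNA was read near the 3′ end of transcripts in 16 libraries. RT112 stands for the Luminal subtype and SCaBER for the Basal subtype of bladder cancer. Each line received siFOXA1.1, siFOXA1.2, siControl.1 or siControl.2, with 2 libraries of each siRNA, numbered 1 and 2 as batch replicates. The siRNA dose was 10 nM per the labels, whereas the methods of the study give an amount in ng, and the hours of treatment are not in the labels. RT112 was grown in RPMI and SCaBER in DMEM, both with FBS, so that line, subtype and medium cannot be told apart, and each subtype is 1 line. Nothing in the labels says that the 2 libraries of an siRNA came from separate cultures, and the p-values below measure only the spread between these libraries.

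Glycolysis splits glucose into pyruvate, and lactate dehydrogenase then turns pyruvate into lactate, which leaves the cell through monocarboxylate transporters. Under low oxygen the prolyl hydroxylases EGLN1 and EGLN3 no longer mark HIF-1α for destruction, and HIF-1 then binds promoters that carry a core word, ACGTG or GCGTG, in many of these genes. In urothelial tumours, as in most carcinomas, glucose uptake and lactate output are often high even with oxygen present.

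The promoters of 5 members are shown because the main results turn on these genes and because each holds the core word of HIF-1 binding. They are the most upstream of the RefSeq starts at hand for LDHA, HK2, GPI, DDIT4 and BNIP3 on GRCh38.p14, with 250 bases before and 50 bases after the start, read 5′ to 3′ on the strand of the gene. The GPI gene is annotated from position 34359718, upstream of the window shown. Capitals mark ACGTG or GCGTG on either strand, so that CACGT and CACGC are the same words on the opposite strand, and CACGTG holds the word ACGTG once on each strand.
LDHA promoter, chr11:18394313-18394612, plus strand: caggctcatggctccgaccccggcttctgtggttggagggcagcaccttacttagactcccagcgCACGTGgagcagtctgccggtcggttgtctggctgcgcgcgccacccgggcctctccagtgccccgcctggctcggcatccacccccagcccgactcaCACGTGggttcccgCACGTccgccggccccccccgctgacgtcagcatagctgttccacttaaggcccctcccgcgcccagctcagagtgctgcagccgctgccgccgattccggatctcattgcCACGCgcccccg
HK2 promoter, chr2:74833877-74834176, plus strand: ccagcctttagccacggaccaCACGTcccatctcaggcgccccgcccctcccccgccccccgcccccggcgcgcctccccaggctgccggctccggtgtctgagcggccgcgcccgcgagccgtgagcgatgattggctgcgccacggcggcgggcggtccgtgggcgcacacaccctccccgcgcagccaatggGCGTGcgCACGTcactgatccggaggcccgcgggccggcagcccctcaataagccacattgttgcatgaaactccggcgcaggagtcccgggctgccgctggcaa
GPI promoter, chr19:34364742-34365041, plus strand: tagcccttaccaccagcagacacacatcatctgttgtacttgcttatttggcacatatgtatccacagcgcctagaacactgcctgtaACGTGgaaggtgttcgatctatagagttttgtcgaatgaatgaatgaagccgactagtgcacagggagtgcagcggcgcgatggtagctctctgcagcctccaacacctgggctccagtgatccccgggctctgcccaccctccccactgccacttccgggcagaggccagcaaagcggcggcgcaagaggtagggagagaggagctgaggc
DDIT4 promoter, chr10:72273674-72273973, plus strand: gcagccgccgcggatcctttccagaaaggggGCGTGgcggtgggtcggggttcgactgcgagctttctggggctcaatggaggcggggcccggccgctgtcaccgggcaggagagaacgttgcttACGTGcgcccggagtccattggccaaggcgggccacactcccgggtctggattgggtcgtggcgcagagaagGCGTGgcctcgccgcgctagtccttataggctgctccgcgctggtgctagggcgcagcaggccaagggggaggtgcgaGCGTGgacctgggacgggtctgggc
BNIP3 promoter, chr10:131981874-131982173, minus strand: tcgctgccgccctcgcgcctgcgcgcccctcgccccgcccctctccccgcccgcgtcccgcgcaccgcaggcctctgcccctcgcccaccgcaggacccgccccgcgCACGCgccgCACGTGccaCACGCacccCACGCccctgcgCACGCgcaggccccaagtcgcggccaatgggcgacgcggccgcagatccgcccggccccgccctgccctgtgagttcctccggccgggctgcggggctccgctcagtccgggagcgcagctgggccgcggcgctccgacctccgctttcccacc
Counted on both strands, the LDHA window held ACGTG 5 times and GCGTG 1 time, and the BNIP3 window held ACGTG 2 times and GCGTG 4 times. HK2 had 2 and 1 of these words, DDIT4 had 1 and 3, and GPI had 1 and 0. RefSeq windows were at hand for 31 of the 36 members (86.1%), and those of NDRG1, SLC16A1, BNIP3L, HILPDA and VEGFA were not analysed here. The members had 57 windows in all, of which 68.4% held at least 1 of the words, against 48.4% of all 35116 promoter windows of the same length. The word ACGTG was in 40.4% of the 57 and in 21.4% of all windows, and GCGTG was in 42.1% and 36.5%. These are matches of letters in a window and not measured binding, and the members include genes known for such words.

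Library totals were 6622473 to 7604581 counts in RT112 and 4528513 to 6914951 counts in SCaBER. Levels below are CPM, counts normalised to the total of the library, and 3 counts, taken as the floor, came to 0.394 to 0.453 CPM in RT112 and 0.434 to 0.662 CPM in SCaBER. Counting error alone is covered by this floor, whereas the SE and SD values below also include the spread between libraries. Mitochondrial genes took 25.7 to 28.2% of the counts under siFOXA1.1 in RT112, 18.0 to 21.2% in the other RT112 libraries and 10.3 to 12.1% in SCaBER. Summed CPM of 8 luminal markers was 631 to 1526 in RT112 and 102 to 190 in SCaBER, where UPK1A and KRT20 did not pass 3 counts, and that of 6 basal markers was 220.2 to 562 in RT112 and 2227 to 3731 in SCaBER. Summed fibroblast markers were at 84.6 to 146 CPM in RT112, with DCN and COL1A2 not past 3 counts, and at 10.03 to 43.96 CPM in SCaBER with DCN not past 3 counts. Leukocyte markers summed to at most 1.52 CPM and endothelial markers to at most 11.2 CPM in any library. In bulk RNA, fewer cells of a type and less RNA per cell cannot be told apart.

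FOXA1 itself was at 35.0 and 29.4 CPM under siControl.1 and at 18.2 and 28.4 CPM under siControl.2 in RT112. It was at 1.32 and 3.24 CPM under siFOXA1.1 and at 9.18 and 16.0 CPM under siFOXA1.2, and no siFOXA1 library overlapped the controls. The log2 change was -3.44 ± 0.47 (SE) for siFOXA1.1 (adjusted p = 2.19e-05, edgeR's quasi-likelihood test with Benjamini-Hochberg adjustment over all genes tested) and -1.10 ± 0.39 for siFOXA1.2 (adjusted p = 0.205). In SCaBER, FOXA1 was close to the floor throughout, at 0.499 to 2.43 CPM in the controls and 0 to 0.951 CPM under the siFOXA1 siRNAs, so that the knock-down could not be checked there.

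Of the 36 members, 34 had enough counts to be tested in each line. ALDOA, the main aldolase of most tissues, had 21 counts over the 16 libraries and CA9, a carbonic anhydrase of the cell surface and a classical hypoxia marker, had 53, and neither is read further. PGAM1, the phosphoglycerate mutase, had 529 counts against 320 in 13 rows of its pseudogenes (37.7% of the sum), so its level is uncertain. The kit keeps strand, but how strand was used in counting was not settled here, and members that overlap another gene are uncertain for that reason. On the same strand these included ALDOA with another gene (21 and 6 counts), so that its low count may not reflect its level. They also included ALDOC with RSKR (2203 and 1030 counts) and EGLN3 with SPTSSA and a second gene (1066 and 2922 counts). Others were PFKFB4 with UCN2 (527 and 112 counts) and ENO2 with LRRC23 (1509 and 201 counts). On the opposite strand the overlapping members included SLC16A3 with CSNK1D (8847 and 14448 counts), SLC16A1 with its antisense RNA and a pseudogene (23522 and 3464 counts) and ANKRD37 with UFSP2 (289 and 2680 counts).

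The lines were first compared in their siControl libraries, 4 of each. RT112 had the higher level of 12 of the 34 tested members and SCaBER of 5, which is 50% called against 43.4% of all genes tested in that comparison (21.2% higher and 22.2% lower in RT112). The siControl libraries of the lines did not overlap for 16 of the 34, and for 41.7% of all genes. The 3 members with the largest difference each way among those past the threshold are given by library. ANKRD37 (-0.87, adjusted p = 0.356) and PFKM (-0.74, adjusted p = 0.117) had differences toward SCaBER of the size of ADM below and did not pass.

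SLC16A1, the lactate transporter MCT1, was at 0.526, 0, 5.06 and 6.53 CPM in the RT112 siControl libraries and at 481, 562, 445 and 559 CPM in those of SCaBER. The lines were far apart in every library, with means of 3.03 ± 3.26 and 512 ± 58.4 CPM (SD, n = 4), a 169-fold higher level in SCaBER. The log2 difference, RT112 minus SCaBER, was -7.37 ± 0.55 (adjusted p = 7.2e-08), and no RT112 library under any siRNA passed 6.53 CPM. The other lactate transporter, SLC16A3 or MCT4, differed the other way, by 0.93 on the log2 scale, as did the glucose transporter SLC2A1 (GLUT1), by 0.62. DDIT4, an inhibitor of the growth kinase complex mTORC1, was at 438, 292, 568 and 432 CPM in RT112 and at 61.2, 80.7, 102 and 80.4 CPM in SCaBER. Each RT112 library was above each SCaBER library, and the log2 difference was 2.42 ± 0.20 (adjusted p = 1.82e-07). P4HA2, a subunit of the prolyl hydroxylase that modifies collagen, was at 57.3, 60.6, 78.9 and 63.8 CPM in RT112 and at 137, 193, 96.9 and 113 CPM in SCaBER, a difference of -1.04 ± 0.20 (adjusted p = 0.00064) with no overlap.

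The oxygen sensor EGLN3 was at 14.2, 9.82, 25.1 and 15.3 CPM in RT112 and at 1.66, 0.779, 5.19 and 1.32 CPM in SCaBER, and the log2 difference was 2.83 ± 0.55 (adjusted p = 0.000698). ENO2, the enolase of neurons, was at 25.4, 12.1, 30.9 and 27.8 CPM in RT112 against 4.49, 0.312, 9.57 and 2.43 CPM in SCaBER, a log2 difference of 2.50 ± 0.61 (adjusted p = 0.00357). Both genes were without overlap, and both were low and uneven in SCaBER. ENO2 ran there from 0.312 CPM, under the floor, to 9.57 CPM, and EGLN3 from 0.779 to 5.19 CPM. ADM, the vasodilator peptide adrenomedullin, was at 17.0, 16.9, 30.2 and 15.1 CPM in RT112 and at 37.9, 29.3, 23.0 and 42.4 CPM in SCaBER, a difference of -0.73 with overlapping libraries (adjusted p = 0.0489). Among the other members, RT112 was higher in PFKL, the liver type of phosphofructokinase (2.12 ± 0.15), HK2 (1.45), the mitophagy receptor BNIP3L (1.39), PGK1 (0.89), P4HA1 (0.72), GAPDH (0.67) and HK1 (0.58), and SCaBER in the pyruvate kinase gene PKM (-0.45) and the enolase gene ENO1 (-0.36). Scaled as TPM, where the median of all genes moved by -0.32, the split of the calls turned to 8 higher and 11 lower in RT112, and SLC2A1, HK1, GAPDH and P4HA1 no longer passed. The ENO1, ADM and P4HA1 calls each rested on single libraries. For ENO1 leaving out RT112 siControl.1 replicate 1 or 2, RT112 siControl.2 replicate 2 or either SCaBER siControl.2 library gave an adjusted p of 0.0654 to 0.0948. For ADM leaving out the same 3 RT112 libraries, SCaBER siControl.1 replicate 1 or SCaBER siControl.2 replicate 2 gave 0.106 to 0.141, and the replicate block gave 0.0535. P4HA1 was at 0.44 (adjusted p = 0.121) without RT112 siControl.2 replicate 1, and at 0.0555 to 0.0708 (adjusted p) without RT112 siControl.2 replicate 2, SCaBER siControl.1 replicate 1 or SCaBER siControl.2 replicate 2.

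**Figure D1:**
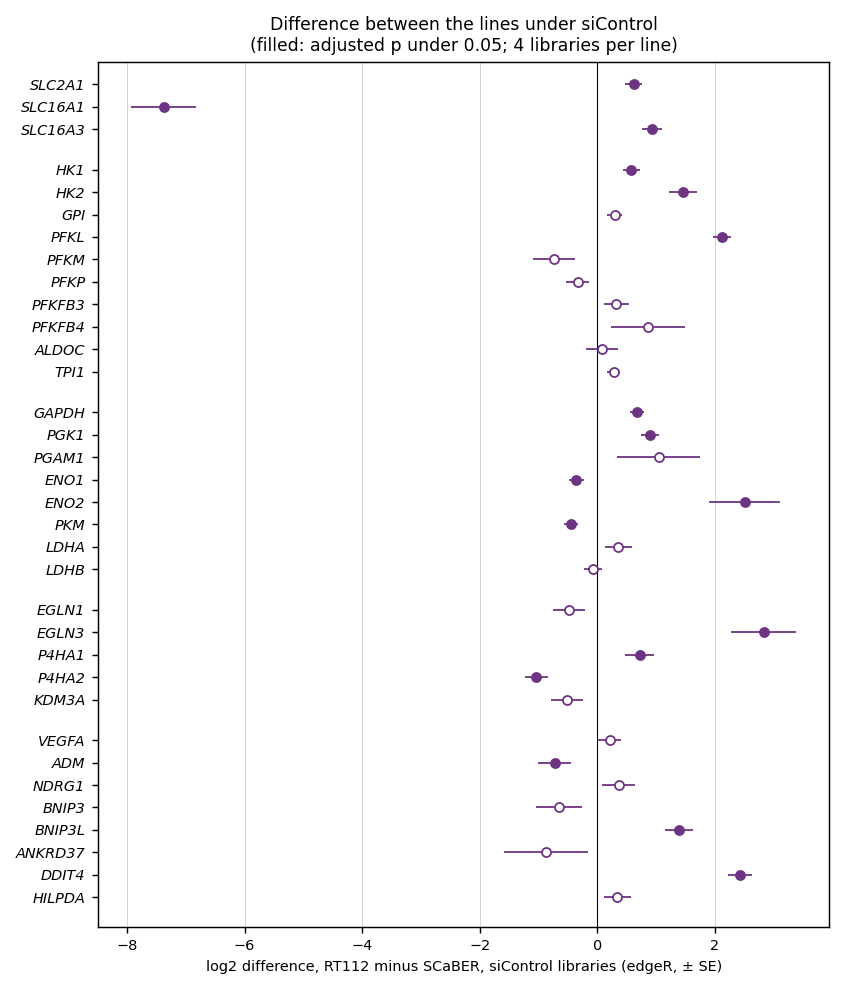
Log2 difference in level, RT112 minus SCaBER, of the 34 tested members in the 4 siControl libraries of each line (x axis, log2 units, bars are SE), with filled points for an adjusted p under 0.05. SLC16A1 lies far to the left at -7.37, and EGLN3, ENO2, DDIT4 and PFKL lie farthest to the right.

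Pooling the 4 siFOXA1 libraries of a line against its 4 siControl libraries, the comparison made in the study, gave no member past the threshold in either line. By edgeR's quasi-likelihood test 0 of 34 members were called in RT112 (background 0.108% of genes, 0.0667% lower) and 0 of 34 in SCaBER (background 0.0084%). At an unadjusted p under 0.05 there were 6 members in each line, against 12.1% of genes in RT112 and 8.9% in SCaBER. DESeq2 called 0 members in RT112, where it called 179 genes, and 1, KDM3A, in SCaBER, where it called 36. ALDOC was the only member whose 4 siFOXA1 libraries lay outside the controls in RT112 (7.95% of genes, 2.65% above and 5.3% below), and HK2, PFKFB4 and KDM3A lay above them in SCaBER (5.28% of genes, 2.43% above). The siFOXA1 siRNAs are therefore described one by one, each against the mean of both controls. Both share those controls, so their values for a gene are not independent of each other.

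Under siFOXA1.1 in RT112, 14 of the 34 tested members passed the threshold, 3 higher and 11 lower, which is 41.2% against a background of 32.6% of genes (15.6% higher, 17% lower). The share called was thus not far above that of all genes. Their median log2 change was -0.31, against -0.01 over all genes tested. All members together took 0.680 to 0.712% of the counts in the siFOXA1.1 libraries and 1.02 to 1.24% in the other 6 RT112 libraries. The mitochondrial share was also higher in those libraries, as given above, and without the mitochondrial counts the numbers were again 3 higher and 11 lower.

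In upper glycolysis, HK2 rose, and GPI, PFKL, PFKFB3 and TPI1 fell. HK2, the hexokinase that traps glucose in the cell and is typical of tumours, was at 29.6, 36.2, 47.1 and 50.03 CPM in the siControl.1 and siControl.2 libraries and at 93.4 and 107 CPM under siFOXA1.1. Both siFOXA1.1 libraries were well above every control, a 2.46-fold mean level, with a log2 change of 1.46 ± 0.18 (adjusted p = 7.71e-06). GPI, the isomerase of the next step, was at 353, 370.1, 415 and 376 CPM in the controls and at 181 and 118 CPM under siFOXA1.1. That is 39.5% of the control mean, with no overlap and a change of -1.21 ± 0.15 (adjusted p = 6.51e-06). PFKFB3 makes fructose 2,6-bisphosphate, the main activator of phosphofructokinase. It was at 46.8, 38.7, 64.7 and 59.5 CPM in the controls and at 27.2 and 16.6 CPM under siFOXA1.1, below every control, and changed by -1.10 ± 0.24 (adjusted p = 0.00173). PFKL fell by 0.87 and the triosephosphate isomerase gene TPI1 by 0.66 on the log2 scale. ALDOC, the aldolase of brain, changed by 0.82 ± 0.30 (adjusted p = 0.0438), a call that was lost without any 1 of 6 libraries (siControl.1 replicates 1 and 2, siControl.2 replicate 2, siFOXA1.1 replicates 1 and 2 and siFOXA1.2 replicate 1, adjusted p up to 0.136) and whose counts may be shared with RSKR.

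In lower glycolysis, 4 of 8 members fell, where 17% of all genes tested were called lower. A change below 0 was seen in 7 of the 8, which include PGAM1 with its uncertain level, and the median was -0.73. The share of all genes below 0 is not given here, so the 7 of 8 are not read as particular to these members. LDHA, the lactate dehydrogenase subunit that favours lactate formation, was at 521, 483, 449 and 458 CPM in the controls and at 207 and 143 CPM under siFOXA1.1. The level was 36.6% of the control mean, far outside the range of the controls, and the change was -1.32 ± 0.12 (adjusted p = 3.24e-07). LDHB, the subunit of the heart type, fell by 0.84 ± 0.12, GAPDH by 0.77 ± 0.09 and ENO1 by 0.33 ± 0.09 on the log2 scale. GAPDH, often used as a reference gene, was at 2892 to 3841 CPM in the controls and at 1871 and 1743 CPM under siFOXA1.1. ENO1 lost its call without siFOXA1.1 replicate 1 (-0.25, adjusted p = 0.0658) and against siControl.1 alone (-0.22, adjusted p = 0.114). None of the 3 transporters passed the threshold.

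Of the oxygen-dependent hydroxylases, P4HA2 rose and the others did not pass. It was at 163 and 114 CPM under siFOXA1.1 against 57.3 to 78.9 CPM in the controls, 2.13-fold, with a change of 1.22 ± 0.17 (adjusted p = 1.91e-05). Of the other hypoxia genes, DDIT4, NDRG1 and HILPDA fell. DDIT4 was at 109 and 40.5 CPM under siFOXA1.1 against 292 to 568 CPM in the controls, which is 17.3% of their mean and the largest fall of any member in RT112, -2.39 ± 0.28 (adjusted p = 3.64e-06). NDRG1, a stress-responsive gene of differentiated epithelia, was at 187, 73.7, 275 and 171 CPM in the controls and at 73.8 and 65.4 CPM under siFOXA1.1. The second siControl.1 library was at the siFOXA1.1 level, so the groups overlapped, and the change was -1.16 ± 0.27 (adjusted p = 0.00323). Without siControl.1 replicate 1 it was -0.76, and against siControl.1 alone it was -0.80 and did not pass (adjusted p = 0.0572). HILPDA, a protein of lipid droplets, was at 37.6, 29.9, 55.5 and 47.1 CPM in the controls and at 30.6 and 16.5 CPM under siFOXA1.1, an overlapping difference of -0.69 ± 0.26 (adjusted p = 0.0498). It was -0.34 (adjusted p = 0.397) without siFOXA1.1 replicate 2 and -1.18 without siFOXA1.1 replicate 1, and the adjusted p was 0.0528 to 0.13 without any 1 of the other 6 RT112 libraries. In all, 3 members lay above and 11 below every control (17.6% and 29.1% of genes, 46.7% together).

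**Figure D2:**
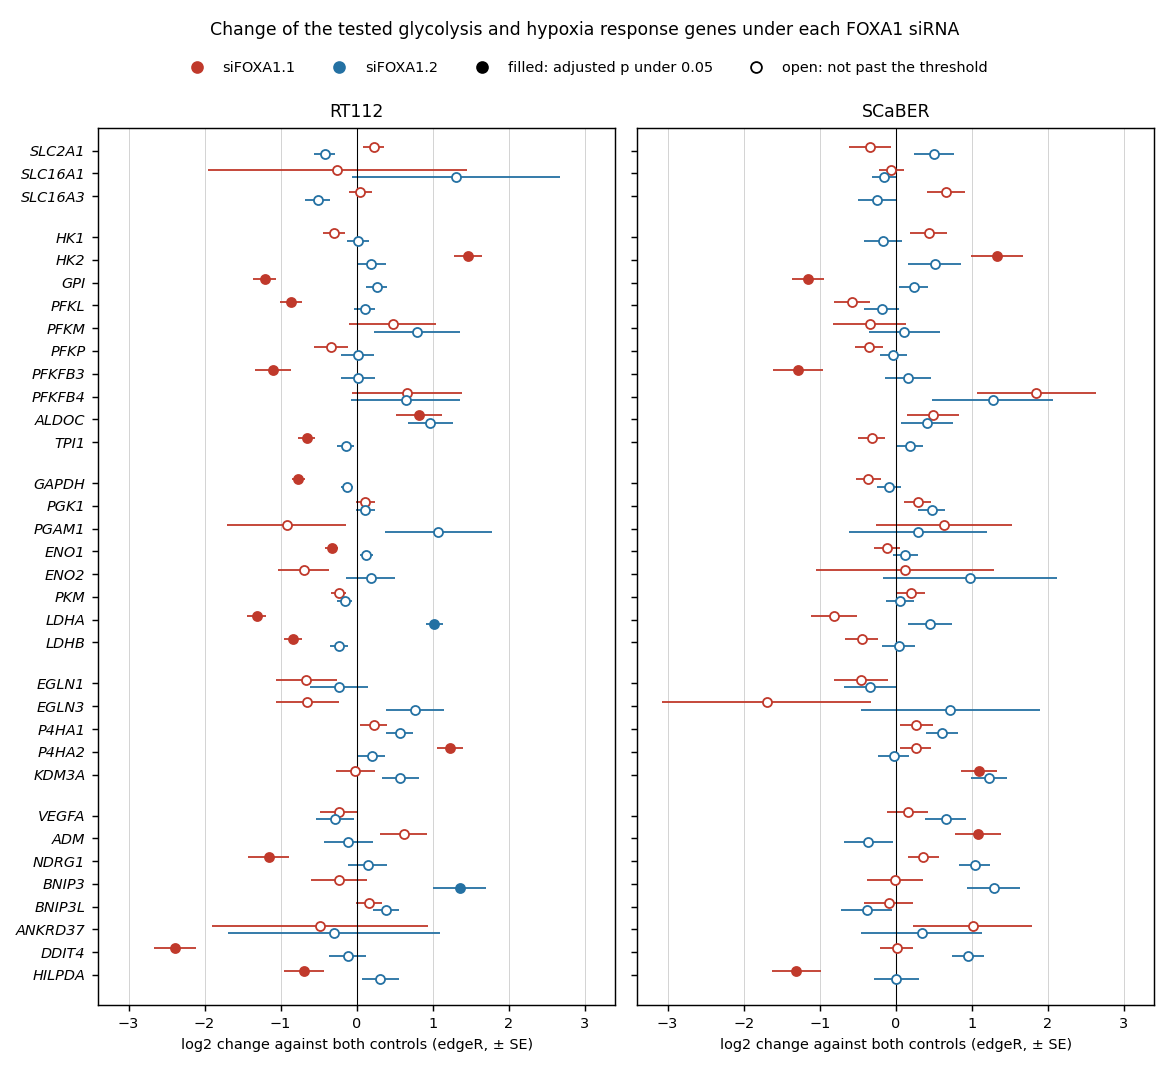
Log2 change (x axis, bars are SE) of each tested member against the mean of both controls under siFOXA1.1 (red) and siFOXA1.2 (blue), in RT112 and SCaBER, with filled points for an adjusted p under 0.05. In RT112 most lower glycolysis members lie left of 0 in red, LDHA is filled on opposite sides at -1.32 and 1.02, and DDIT4 has the largest fall at -2.39.

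Under siFOXA1.1 in SCaBER, 6 of 34 members passed, 3 higher and 3 lower, 17.6% against a background of 9.26% of genes (4.47% higher, 4.79% lower). The median change of the members was 0.00, against 0.01 for all genes. FOXA1 is near the floor in this line, as given above. The RT112 calls of 4 members were also made here in the same direction, HK2 higher and GPI, PFKFB3 and HILPDA lower, where 6.96% of the 10685 genes tested in both lines were called in both in the same direction. No member was called in opposite directions. HK2 was at 12.6, 15.3, 17.8 and 14.1 CPM in the controls and at 23.5 and 50.6 CPM under siFOXA1.1. Both libraries were above the controls, by unequal amounts, and the change was 1.33 ± 0.34 (adjusted p = 0.0234). It was 0.72 (adjusted p = 0.339) without siFOXA1.1 replicate 2, and the adjusted p also passed 0.05 without siControl.1 replicate 1 or either siControl.2 library.

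GPI was at 317, 257, 322 and 352 CPM in the SCaBER controls and at 160.2 and 112 CPM under siFOXA1.1, 43.6% of the control mean and below every control. The change of -1.16 ± 0.21 (adjusted p = 0.00274) was close to that in RT112. PFKFB3 was at 37.8, 36.003, 57.1 and 37.5 CPM in the controls and at 13.4 and 20.2 CPM under siFOXA1.1, again without overlap (-1.28 ± 0.33, adjusted p = 0.0233). Its adjusted p was 0.108 without siControl.2 replicate 1 and 0.0974 without siFOXA1.1 replicate 1. HILPDA was at 37.9, 40.8, 28.2 and 28.3 CPM in the controls and at 14.8 and 11.6 CPM under siFOXA1.1, below every control (-1.31 ± 0.32, adjusted p = 0.0183). That call was lost without either siControl.2 library (adjusted p = 0.0626 and 0.0569) or without siFOXA1.1 replicate 2 (0.1).

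The other 2 calls in SCaBER were of KDM3A and ADM. KDM3A, a histone demethylase of the hypoxia response, was at 29.8, 38.8, 47.1 and 36.7 CPM in the controls and at 74.2 and 84.0 CPM under siFOXA1.1, above every control (1.09 ± 0.23, adjusted p = 0.00935). Its adjusted p was 0.0535 without siControl.2 replicate 2, 0.0628 against siControl.2 alone and 0.0919 on TPM. ADM was at 83.1 and 53.1 CPM against 23.0 to 42.4 CPM in the controls (1.08 ± 0.31, adjusted p = 0.0402), and was 0.68 (adjusted p = 0.265) without siFOXA1.1 replicate 1. Leaving out either siControl.1 library, siControl.2 replicate 1 or either siFOXA1.2 library also took its adjusted p past 0.05 (up to 0.17). LDHA was at 108 and 296 CPM under siFOXA1.1, against 361, 628, 258 and 263 CPM in the controls, and with that spread its change of -0.81 ± 0.31 did not pass (adjusted p = 0.121). In this line 6 members lay above and 5 below every control (13.9% and 16.3% of genes).

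The lines were then set against each other in the response to siFOXA1.1, by a test of the difference of the changes over all 16 libraries. Of 34 members, 2 differed, both with the more negative change in RT112, 5.88% against 3.14% of genes (1.83% in that direction and 1.31% in the other). For DDIT4 the libraries under siFOXA1.1 were at 17.3% of the control mean in RT112 and at 98.0% in SCaBER, where they had 68.4 and 90.7 CPM. The difference of the log2 changes was -2.42 ± 0.40 (adjusted p = 0.00197). NDRG1 was at 186 and 161 CPM under siFOXA1.1 in SCaBER against 167, 122, 152 and 111 CPM in its controls, and the difference of changes was -1.54 ± 0.40 (adjusted p = 0.0423). The NDRG1 call was lost in 11 of 22 alternatives, among them the removal of either siFOXA1.1 library of RT112 (adjusted p = 0.107 and 0.15), of replicate 1 of either of its controls, and of 6 of the 8 SCaBER libraries (all but siControl.1 replicate 1 and siFOXA1.1 replicate 2). DDIT4 passed in all 22. KDM3A (-1.13, adjusted p = 0.0708) and P4HA2 (0.94, adjusted p = 0.0721) did not pass.

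**Figure D3:**
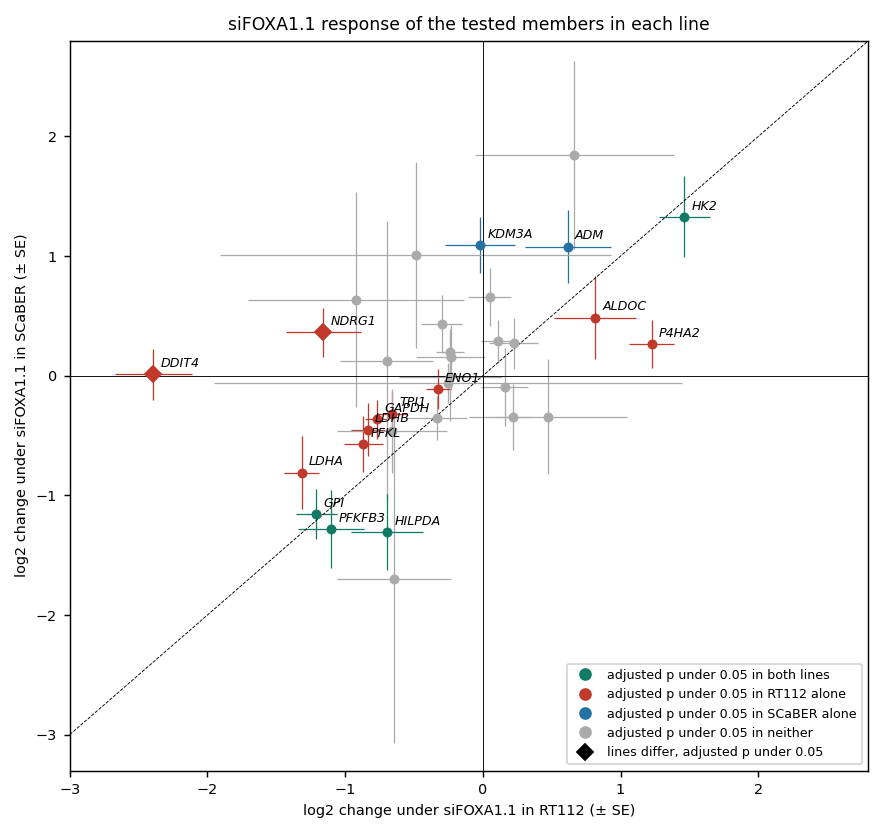
Log2 change under siFOXA1.1 in RT112 (x axis) and SCaBER (y axis) for the members tested in both lines, with diamonds for DDIT4 and NDRG1, whose changes differed between the lines. HK2 lies at the upper right and GPI, PFKFB3 and HILPDA at the lower left, while DDIT4 stands far to the left near 0 on the SCaBER axis.

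siFOXA1.2 gave fewer calls. In RT112, where FOXA1 kept more of its level under this siRNA, 2 of 34 members passed, both higher, 5.88% against 2.04% of genes (1.04% higher). LDHA was at 990.2 and 922 CPM under siFOXA1.2, against 449 to 521 CPM in the controls, and both libraries were far above them. The level was 2.00-fold the control mean, with a log2 change of 1.02 ± 0.11 (adjusted p = 3.36e-05), and within batch replicates 1 and 2 the log2 ratio of CPM was 1.03 and 0.97. BNIP3, a mitophagy receptor and hypoxia target, was at 13.2, 5.89, 25.9 and 15.7 CPM in the controls and at 41.2 and 30.0 CPM under siFOXA1.2, above every control (1.35 ± 0.34, adjusted p = 0.0496). That call sat at the threshold and was lost without either siControl.2 library, either siFOXA1.2 library or siControl.1 replicate 2, with changes of 1.11 to 1.56 and adjusted p up to 0.492. ALDOC, LDHA and BNIP3 lay above every control (8.8% of genes), and SLC2A1 and SLC16A3 lay below (11.5% of genes, 20.3% together).

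In SCaBER no member passed under siFOXA1.2 by edgeR's quasi-likelihood test, 0 of 34 against 0.042% of genes (0.0252% higher, 0.0168% lower), while 7 members and 5.33% of genes had an unadjusted p under 0.05. DESeq2 called 38 genes, 3 of them members, NDRG1, KDM3A and DDIT4. Nevertheless 11 of the 34 lay above every control and 0 below, against 7.29% and 8.31% of genes. These 11 were SLC2A1, HK2, PFKFB4, ALDOC, PGK1, VEGFA, NDRG1, BNIP3, P4HA1, KDM3A and DDIT4. NDRG1 was at 300.02 and 259 CPM (1.04 ± 0.20, adjusted p = 0.147), KDM3A at 101 and 73.2 CPM (1.22 ± 0.23, adjusted p = 0.147) and DDIT4 at 138 and 168 CPM (0.95 ± 0.21, adjusted p = 0.265). With the replicate block NDRG1 alone passed. BNIP3 was at 65.9 and 49.6 CPM under siFOXA1.2 and at 15.5, 29.3, 33.8 and 17.4 CPM in the controls, a log2 change of 1.29 ± 0.35 (adjusted p = 0.483) and a mean ratio of 2.41, beside 2.35 in RT112. The median change of the members was 0.21, against 0.01 for all genes. In the difference between the lines under siFOXA1.2, 0 of 34 members passed (0.0438% of genes, 0.0219% each way), 5 members and 6.05% of genes had an unadjusted p under 0.05, and DESeq2 also called 0 members.

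The siFOXA1 siRNAs were also set directly against each other, without the control means. The control libraries still entered the filter, the scaling and the estimate of the spread. In RT112 the siFOXA1 siRNAs differed for 17 of 34 members, 4 higher and 13 lower under siFOXA1.1, 50% against 28.1% of genes (13% higher, 15.1% lower). The largest difference was that of LDHA, at 207 and 143 CPM against 990.2 and 922 CPM (-2.34 ± 0.14, adjusted p = 2.8e-09). Lower under siFOXA1.1 were also DDIT4 (-2.27), BNIP3 (-1.59), GPI (-1.47), EGLN3 (-1.41), NDRG1 (-1.30), PFKFB3 (-1.11), HILPDA (-1.003), PFKL (-0.97), GAPDH (-0.64), LDHB (-0.60), TPI1 (-0.51) and ENO1 (-0.46). Higher were HK2 (1.27), P4HA2 (1.03) and the transporters SLC2A1 (0.64) and SLC16A3 (0.56). Without siFOXA1.2 replicate 1, 11 members passed, and SLC2A1, SLC16A3, TPI1, BNIP3, EGLN3 (-0.70, adjusted p = 0.428) and HILPDA did not. EGLN3 and HILPDA were also lost without siFOXA1.1 replicate 2 (adjusted p = 0.133 for both), where HILPDA was at -0.65, and SLC16A3 without siFOXA1.1 replicate 1 (0.146). In SCaBER 5 members differed, 14.7% against 4.85% of genes (2.05% higher, 2.8% lower), ADM higher (1.44) and GPI (-1.39), PFKFB3 (-1.44), DDIT4 (-0.94) and HILPDA (-1.32) lower under siFOXA1.1. LDHA in SCaBER was at 108 and 296 CPM against 527 and 439 CPM, with a difference of -1.26 ± 0.35 (adjusted p = 0.0508). With the replicate block 8 members passed, SLC2A1, LDHA and NDRG1 among them. The count in SCaBER was 0 without siFOXA1.2 replicate 1, 1 without siFOXA1.2 replicate 2 or either siControl.2 library, and 8 without siFOXA1.1 replicate 2.

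**Figure D4:**
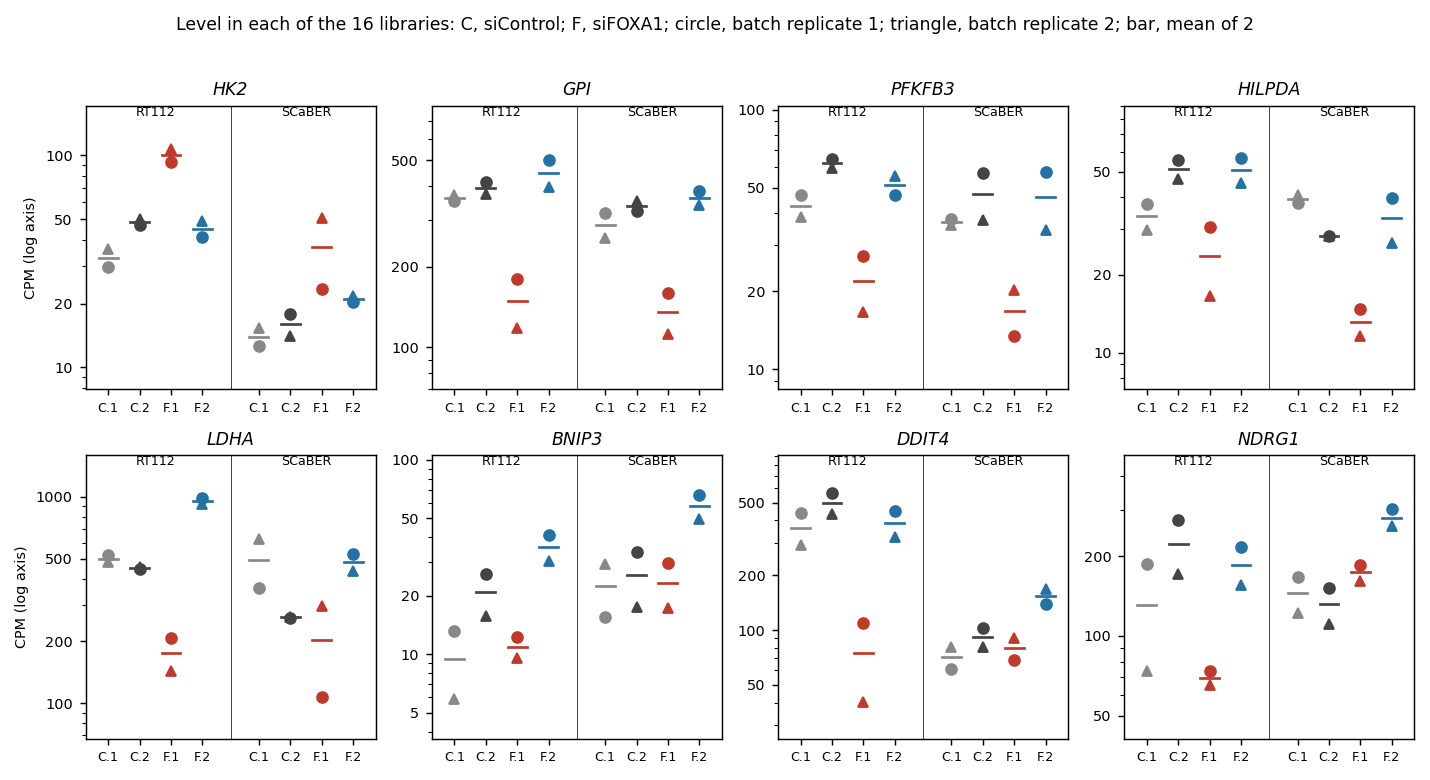
Level in CPM (log axis) of HK2, GPI, PFKFB3, HILPDA, LDHA, BNIP3, DDIT4 and NDRG1 in the 16 libraries, by siRNA and line, with circles for batch replicate 1, triangles for batch replicate 2 and a bar at the mean of the 2 libraries. LDHA in RT112 lies at 449 to 521 CPM in the controls, at 207 and 143 CPM under siFOXA1.1 and at 990.2 and 922 CPM under siFOXA1.2.

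The control siRNAs gave the background of such a comparison. In RT112 siControl.1 and siControl.2 differed for 1 of 34 members by edgeR's test (2.36% of genes, 1.12% lower under siControl.1). The member was P4HA1, which like P4HA2 encodes the kind of subunit that modifies collagen. It was at 107 and 66.9 CPM against 194 and 139.5 CPM (-0.88 ± 0.21, adjusted p = 0.0326). At an unadjusted p under 0.05 there were 9 members and 13.2% of genes. Without siControl.2 replicate 1 the P4HA1 difference was -0.61 (adjusted p = 0.394), and without siControl.1 replicate 2 it was -0.59 (adjusted p = 0.438). All 8 tested members among the other hypoxia response genes had a change below 0, siControl.1 minus siControl.2, and the median over all members was -0.31. The share of all genes below 0 is not given here, so this is not read as particular to these members. The member median for siFOXA1.1 against both controls in RT112 was also -0.31. In SCaBER 0 of 34 members differed between the controls (0.0672% of genes, 0.0504% higher and 0.0168% lower), 2 members and 6.64% of genes had an unadjusted p under 0.05, DESeq2 called 0 members, and a fit without the filter on low counts called 1, LDHA.

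Genes around the members came from 3 lists that hold no member. Of the HIF subunits and their regulators, 11 were tested in RT112 under siFOXA1.1, and 1 rose and 2 fell, 27.3% against the 32.6% of all genes and so no more than the background. EPAS1, which encodes HIF-2α, had mean levels of 247 CPM in the controls and 98.3 CPM under siFOXA1.1 (-1.18, adjusted p = 2.5e-06). HIF1A, which encodes HIF-1α, was at 286 and 180 CPM (-0.53, adjusted p = 0.00123), and SIAH2, a ubiquitin ligase for the EGLN enzymes, changed by 0.94. Under siFOXA1.2 in RT112, HIF1A had a mean of 356 CPM, above that of the controls, and EPAS1 a mean of 184 CPM. SIAH2 was at 30.8 CPM there and at 31.1 CPM in the controls. By edgeR's direct test, siFOXA1.1 was lower than siFOXA1.2 for HIF1A (-0.86, adjusted p = 6.2e-05) and EPAS1 (-0.79, adjusted p = 0.00058). In SCaBER 0 of 11 passed under siFOXA1.1, against 9.26% of all genes. The difference between the lines under siFOXA1.1 was -0.87 for EPAS1 (adjusted p = 0.0889) and -0.48 for HIF1A (adjusted p = 0.186), neither past the threshold. Of the other hypoxia response genes, 5 rose and 5 fell among 26 in RT112 under siFOXA1.1 (38.5%, near the 32.6% of all genes). IGFBP3, an IGF-binding protein, and MXI1, a MYC antagonist, were both at -1.63. Under siFOXA1.2 in RT112 their means were 1089 and 30.5 CPM, against 1001 and 36.2 CPM in the controls. The glucose transporter gene SLC2A3 had 0 counts in both siFOXA1.1 libraries, 1 and 13 counts under siControl.1 and 66 and 76 counts under siControl.2, so that the controls differed widely. In SCaBER 5 rose and 1 fell among 28 (21.4% against 9.26% of all genes, 4.47% higher and 4.79% lower), with ANGPTL4, an inhibitor of lipoprotein lipase, at 4.29 and IGFBP3 at -1.86. ANGPTL4 was low and uneven in the SCaBER controls, with 1 and 4 counts under siControl.1 and 5 and 20 counts under siControl.2. It had 73 and 138 counts under siFOXA1.1, so the size of its change is uncertain.

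Of the other genes of glucose and pyruvate use, 2 rose and 7 fell among 23 in RT112 under siFOXA1.1 (39.1%, near the 32.6% of all genes). The largest changes were in genes around pyruvate dehydrogenase, DLAT, its acetyltransferase subunit (-1.87), PDK3, a kinase that shuts it off (-1.47), and PDP1, the phosphatase that turns it on (1.46). PDK3 (-1.06) and PDP1 (1.39) also passed under siFOXA1.2 in RT112 (adjusted p = 0.0446 for both). AK4, an adenylate kinase of mitochondria from the list of other hypoxia response genes, passed there too (1.07, adjusted p = 0.0107). Its mean was 114 CPM under siFOXA1.2, 38.5 CPM under siControl.1 and 78.1 CPM under siControl.2, so that the controls differed. Under siFOXA1.2 in RT112, 2.04% of all genes passed. Of the glucose and pyruvate genes in SCaBER, 0 of 23 passed under siFOXA1.1, against 9.26% of all genes. DLAT was at -1.45 there and just missed the threshold in edgeR's test (adjusted p = 0.0557). Its difference between the lines was -0.45 (adjusted p = 0.78). By edgeR's test of the difference, the response to siFOXA1.1, RT112 minus SCaBER, differed for PDP1 (1.45, adjusted p = 0.0205). It also differed for TXNIP, which holds back glucose uptake (-1.86, adjusted p = 0.000868). Near the threshold were PGD of the pentose phosphate pathway (-1.002, adjusted p = 0.0435) and, from the hypoxia list, the transferrin receptor gene TFRC (1.02, adjusted p = 0.0492). In this comparison 3.14% of all genes passed.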

How the data were processed

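The libraries were made with a forward-stranded 3′ mRNA kit. Per the deposited configuration, the authors trimmed reads with TrimGalore 0.6.2 (minimum quality 20, minimum length 10), aligned them to hg38 with STAR 2.6.1a and counted them on GENCODE 29, whereas the methods of the study name hg19. They deposited whole-number counts per gene, used here, and TPM values, used as an alternative on a log2(TPM + 1) scale. Levels were compared between samples and not between genes.

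All counts were fitted with edgeR 4.0.16 in R 4.3.3 (TMM, filterByExpr, quasi-likelihood F test, Benjamini-Hochberg adjustment over all genes tested, threshold 0.05), and SE is the absolute log2 change over the square root of F. CPM values use library totals and log2 changes use TMM. Alternatives were DESeq2 1.42.0, limma 3.58.1, other scalings and filters, single controls, leaving out each library and a block for the replicate number. The labels call the numbers batch replicates, which pairs the samples, while deviations of same-numbered samples correlated by only -0.0117 to 0.246. Members, lists and tests were chosen with earlier results of these data known. The named members are all 36. Values by library are given for members that passed under siFOXA1.2, between the lines in response, or under siFOXA1.1 in both lines, and for the 3 largest line differences each way among those past the threshold. Other genes named are the 3 largest changes past the threshold per list and line under siFOXA1.1, of which 1 is not reported here, and those given for siFOXA1.2 and for the difference between the lines were chosen after their values were seen, as were the library values of KDM3A, ADM and P4HA1.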

Additional observations from a re-analysis of the deposited data

Results flagged for a closer look

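Of 139 groups of 4 libraries of 1 gene, line and target, 8 held a library far from the other 3, where about 1 in 20 would by chance alone. Most were in SCaBER. HK2 was at 50.6 CPM in siFOXA1.1 replicate 2, above the other siFOXA1 libraries, and PFKFB3 was at 57.1 CPM in siControl.2 replicate 1, above the other controls. ALDOA was at 3.97 CPM in siControl.2 replicate 2, and ENO2 was at 0 CPM in siFOXA1.1 replicate 1. PKM was low in siControl.1 replicate 2, at 1180.3 CPM. In siFOXA1.1 replicate 1, SLC16A1 stood high at 510.4 CPM and P4HA1 stood low at 71.2 CPM. In RT112, ADM was at 30.2 CPM in siControl.2 replicate 1, above the other controls.

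The response to siFOXA1.1 differed between the lines, by the test of the difference itself in edgeR with Benjamini-Hochberg adjustment, for DDIT4 (-2.42, RT112 minus SCaBER on the log2 scale) and NDRG1 (-1.54). Both siFOXA1.1 libraries of RT112 were below all 4 controls for DDIT4, and in SCaBER they lay within the range of the controls.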

How the results depend on the processing

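No direction of a called member reversed under any alternative run. Of 64 called values of single members over all comparisons, 33 kept their call under every alternative and 31 lost it in at least 1. Kept throughout were, under siFOXA1.1 in RT112, HK2, GPI, PFKL, PFKFB3, TPI1, GAPDH, LDHA, LDHB, P4HA2 and DDIT4, then LDHA under siFOXA1.2 in RT112, GPI under siFOXA1.1 in SCaBER and DDIT4 in the response of the lines. Between the siFOXA1 siRNAs in RT112 they were HK2, GPI, PFKL, PFKFB3, GAPDH, ENO1, LDHA, LDHB and DDIT4, and between the controls of the lines HK2, PFKL, PGK1, ENO2, PKM, SLC16A1, SLC16A3, BNIP3L, EGLN3, P4HA2 and DDIT4. Counts of members called moved by over 1.5 times as follows. For siFOXA1.2 in RT112 (2), library totals alone, leaving out mitochondrial counts, TPM and siControl.2 alone each gave 1, and leaving out 1 library gave 1 to 3. For siFOXA1.1 against siFOXA1.2 in RT112 (17) leaving out 1 library gave 11 to 17. Between the controls of RT112 (1), no filter gave 2, TPM 0 and leaving out 1 library 0 to 2 (0 without siControl.2 replicate 1 or siControl.1 replicate 2). In SCaBER, the pooled comparison (0) gave 1 with DESeq2 and 1 without the filter. For siFOXA1.1 there (6), TPM and siControl.2 alone each gave 2 and leaving out 1 library 2 to 7. For siFOXA1.2 there (0), DESeq2 gave 3, no filter 4, the replicate block 1 and leaving out 1 library 0 to 3. For siFOXA1.1 against siFOXA1.2 in SCaBER (5), no filter gave 8, the replicate block 8, TPM 2 and leaving out 1 library 0 to 8. Between its controls (0), no filter gave 1. For the difference between the lines under siFOXA1.1 (2), DESeq2 gave 4, TPM 1 and leaving out 1 library 1 to 8, and under siFOXA1.2 (0) no filter gave 1. The cause was not tested.

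The split of the calls moved under TPM from 4 higher and 13 lower to 1 and 12 between the siFOXA1 siRNAs in RT112, and from 3 and 3 to 0 and 2 under siFOXA1.1 in SCaBER. Under siFOXA1.1 in RT112, library totals alone and TPM each gave 2 higher and 13 lower, with the median of all genes at -0.15 and -0.29. Beside the counts given, the replicate block ended 1 call of a single member, ADM between the lines (adjusted p = 0.0535), and changed no other. At 4528513 to 7604581 counts per library, members near 3 counts, ALDOA and CA9, could not be compared. Why ALDOA, which overlaps another gene on the same strand, had so few counts was not tested.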
